A study of Homo sapiens with 6 samples.

Results

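The genes described here are 10 human genes of the cytosolic nucleic acid sensing and interferon response, chosen by name, of 23204 gene symbols in the deposited tables. The sensing side consisted of the RNA sensor IFIH1, the adaptor MAVS, the kinases TBK1 and IKBKE and the transcription factor IRF3, and the response side of the interferon-induced genes IFIT1, IFIT2, IFIT3, ISG15 and OAS1. Where a symbol had several rows, 1 per RefSeq transcript, the row with the highest mean over the 6 libraries was used, and the 10 genes had 25 rows in all. Levels are in RPKM, the reads of a row divided by its length in kilobases and by the library's total in units of 1000000 reads, and can be compared between genes.

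The study measured RNA in HEK293T cells, a human embryonic kidney line that carries the SV40 large T antigen, after the RNA helicase DDX3X had been raised or lowered. For overexpression, 5 µg of plasmid was given for 32 h, and it encoded GFP alone, GFP-DDX3X WT, GFP-DDX3X T275M or GFP-DDX3X G302V. The GFP-positive cells of these 4 groups were then collected by flow cytometry. T275M and G302V are single amino acid changes, which the study took from medulloblastoma. For knockdown, control siRNA or DDX3X siRNA was given for 48 h, and no sorting is described for these cells. A plot legend of the study names another mutant in place of T275M, so the identity of that library rests on its label. All 6 groups kept the DDX3X gene of the line, so the constructs were expressed beside the endogenous helicase. Each group held 1 library, so no difference could be set against a spread between replicates and no p-value was computed. The intervals given are exact 95% counting intervals. They cover counting error only and not the spread between replicates, and they are too narrow where several reads come from 1 molecule copied by PCR.

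Cells detect viral or misplaced RNA in the cytosol through helicases such as IFIH1 (MDA5), which hand the signal to MAVS on the mitochondrial surface. Double-stranded DNA is sensed by cGAS, which acts through STING. Both routes activate TBK1 and IKBKE (IKK epsilon), which phosphorylate IRF3, and IRF3 switches on type I interferon. Secreted interferon then induces antiviral genes through JAK kinases and the transcription factors they activate, and some of these genes also respond to IRF3 directly. DDX3X is known to act with TBK1, IKK epsilon and MAVS in this pathway.

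The labels call the cells Neuronal, and the neurofilament genes NEFM (514 to 683 RPKM) and NEFL (109 to 140 RPKM) were high, whereas STMN2 and DCX had fewer than 3 reads in every library. The leukocyte markers PTPRC and CD3E also had fewer than 3 reads in every library, and the 6 leukocyte markers summed to 2.92 to 4.22 RPKM. DDX3X itself was at 119 RPKM with GFP, 2894 with WT, 3279 with T275M, 1906 with G302V, 107 with control siRNA and 31.3 with DDX3X siRNA. DDX3X thus moved as the labels say in all 6 libraries, and T275M was the highest and G302V the lowest of the 3 constructs. RPKM multiplied by transcript length fell on whole numbers of reads, which gave depths of 43720000 to 67520000 reads in 5 libraries and 180870000 in the DDX3X siRNA library. The last was therefore 2.68 times as deep as its control, and for genes of low expression the number of reads is given beside each level.

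MAVS, TBK1 and IRF3 were expressed in all 6 libraries at levels that counting error hardly limits, between 2080 and 17203 reads per gene and library. IKBKE was also expressed in all 6, at 194 to 637 reads, and its intervals were wider. IRF3 was the highest of the 10 genes on average (40.7 RPKM), followed by TBK1 (14.9), MAVS (7.93), ISG15 (2.74), IFIT1 (2.11) and IKBKE (1.40). IFIT3 (0.178), IFIH1 (0.124) and IFIT2 (0.0669) were far lower, and OAS1 had no read at all. Between neighbours in this order, the ranges over the libraries overlapped for IFIT1 and IKBKE, for IFIT3 and IFIH1 and for IFIH1 and IFIT2. ISG15, with a lowest level of 2.45 RPKM, lay just above the highest level of IFIT1, 2.41 RPKM. The 5 sensing genes summed to 55.7 to 70.1 RPKM and the 5 interferon-induced genes to 4.0 to 5.60 RPKM, with the lowest sum of both in the DDX3X siRNA library.

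**Figure D1:**
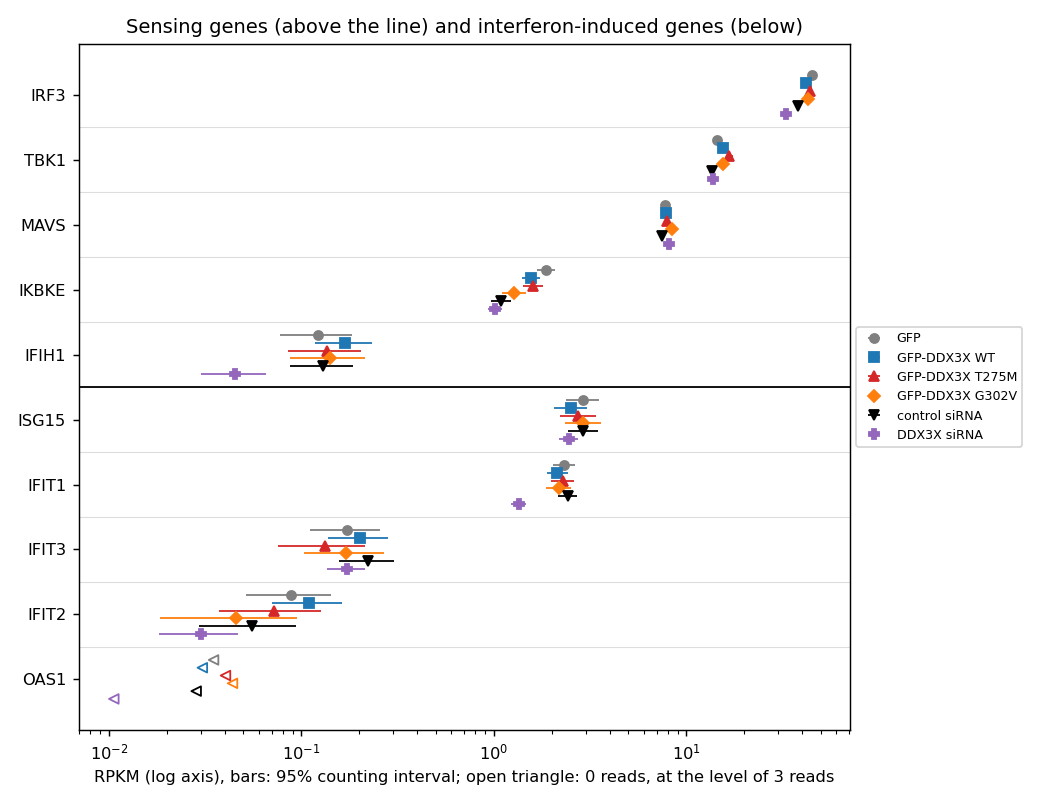
RPKM of the 10 genes (log axis) in the 6 libraries, 1 symbol per library, with 95% counting intervals; an open triangle marks 0 reads and stands at the level of 3 reads. The genes above the line belong to sensing and those below are interferon-induced, and most sit within a narrow range over the libraries, except IFIH1 and IFIT2, which fall lowest with DDX3X siRNA.

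MAVS carries the signal of RNA sensors and is the mitochondrial member of the pathway. It was at 7.77 RPKM with GFP, 7.87 with WT, 7.93 with T275M, 8.44 with G302V, 7.48 with control siRNA and 8.08 with DDX3X siRNA. The highest level was 1.13 times the lowest, and the 6 values lay close together. With DDX3X siRNA the read rate, reads per library total, was 1.08 times that of control siRNA (95% interval 1.05 to 1.11). G302V gave 1.09 times GFP (1.04 to 1.13), and WT and T275M gave ratios whose intervals held 1. Scaled by the median gene, WT was at 0.951 (0.915 to 0.987) and T275M at 0.942 (0.905 to 0.981) times GFP. G302V was also above WT, at 1.07 times (1.03 to 1.12). In bulk RNA, fewer cells that express a gene and less RNA per cell cannot be told apart. The 3 MAVS rows gave the same picture, with ratios of 1.081 to 1.089 for DDX3X siRNA over its control.

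TBK1, the kinase that activates IRF3, was at 14.4 RPKM with GFP, 15.4 with WT, 16.7 with T275M, 15.4 with G302V, 13.6 with control siRNA and 13.7 with DDX3X siRNA. Relative to GFP its read rate was 1.07 times with WT (1.02 to 1.13), 1.16 with T275M (1.10 to 1.23) and 1.07 with G302V (1.01 to 1.14). Differences of this size were common, and 5321 of 12915 genes with WT, 3479 of 12912 with T275M and 4722 of 12775 with G302V were as high or higher. With the libraries scaled by their median gene in place of their total, the ratio was 1.01 with WT (0.954 to 1.06), 1.07 with T275M (1.01 to 1.13) and 1.03 with G302V (0.975 to 1.10), so that T275M alone kept an interval without 1. For DDX3X siRNA over its control the ratio was 1.01 by total, with an interval that held 1, and 1.05 (1.004 to 1.10) by median gene. T275M was also above WT, at 1.08 times (1.03 to 1.14), the single member whose interval left out 1 in that comparison. These 4 plasmid comparisons share the GFP or the WT library.

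IRF3, the transcription factor that TBK1 phosphorylates, was at 45.0 RPKM with GFP, 41.7 with WT, 43.8 with T275M, 42.8 with G302V, 37.8 with control siRNA and 32.8 with DDX3X siRNA. The 4 sorted plasmid libraries were all above the 2 siRNA libraries. DDX3X siRNA gave 0.868 times its control (0.835 to 0.902), a log2(RPKM + 1) difference of -0.20. The 9 IRF3 rows, which share reads, gave ratios of 0.859 to 0.886. WT stood at 0.927 times GFP (0.885 to 0.971) and G302V at 0.951 (0.904 to 0.9996), whereas the interval for T275M held 1 (by median gene, T275M was at 0.898, 0.855 to 0.943).

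IKBKE, the relative of TBK1 with the same role, varied more, over a 1.85-fold range. Its level was 1.87 RPKM with GFP (357 reads), 1.56 with WT (339), 1.60 with T275M (264), 1.28 with G302V (194), 1.09 with control siRNA (256) and 1.01 with DDX3X siRNA (637). GFP was the highest library and the 3 DDX3X constructs lay between GFP and the siRNA libraries. G302V was at 0.682 times GFP (0.570 to 0.814), a log2(RPKM + 1) difference of -0.34 that 352 of 12775 genes matched or passed in that direction. WT was at 0.830 times GFP (0.713 to 0.966) and T275M at 0.853 (0.725 to 1.003), or 0.787 by median gene (0.669 to 0.926). Against WT, G302V was at 0.821 times (0.685 to 0.983), or 0.852 by median gene, with an interval (0.71 to 1.02) that held 1. The largest IKBKE difference lay between the 2 controls, with GFP at 1.72 times control siRNA (1.46 to 2.02), or 0.46 on the log2(RPKM + 1) scale, and 284 of 12730 genes were as high or higher there. The 2 controls differ in the agent, in the time and in the sorting, which cannot be told apart. DDX3X siRNA over control siRNA gave a ratio of 0.929, and the interval (0.802 to 1.08) held 1.

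IFIH1, which binds long double-stranded RNA and is itself induced by interferon, was near the limit of these libraries. It had 23 reads with GFP, 36 with WT, 22 with T275M, 21 with G302V, 30 with control siRNA and 28 with DDX3X siRNA. These reads stand for 0.123, 0.168, 0.135, 0.140, 0.130 and 0.0453 RPKM in the same order, since the last library was much deeper. The DDX3X siRNA library was the lowest and the other 5 lay within 0.123 to 0.168 RPKM. Its read rate was 0.348 times that of control siRNA (0.201 to 0.604). This was the single member called in any of the 7 comparisons at a 2-fold ratio of read rates, with an interval that leaves out 1 and 10 reads in a library. Of all genes under 1 RPKM on average, 7.39% were called lower by the same rule in this comparison. In the 3 construct libraries the interval of the ratio of IFIH1 to GFP held 1.

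Among the interferon-induced genes, IFIT1 and ISG15 were expressed above 1 RPKM in every library, IFIT2 and IFIT3 were present at 7 to 79 reads, and OAS1 was not detected. As background to their shared regulation, the promoters of the 10 genes were searched for GAAANNGAAA on either strand (TTTCNNTTTC on the other), the core of the interferon-stimulated response element, to which IRF complexes bind. The RefSeq promoter table (GRCh38.p14, 300 bases across each gene's start, most of them upstream) held 8 of the 10 genes, and not IRF3 and IFIT2. Of all 35116 promoters in it, 3.57% held the motif. It was found in IFIH1 (3 matches), IFIT1 (2), ISG15 (2) and both IFIT3 promoters (2 each), and no match lay in the windows of MAVS, TBK1, IKBKE and OAS1. The windows below, 5′ to 3′ on the gene's strand with the matches in capitals, show the paired matches and 1 of the single ones.
IFIT1, chr10:89392504-89392533, plus strand: tagTTTCACTTTCcccTTTCGGTTTCccta
ISG15, chr1:1013377-1013406, plus strand: gcctcggGAAAGGGAAACCGAAActgaagc
IFIH1, chr2:162318821-162318850, minus strand: aattcgcTTTCCTTTTCTGTTTCccgcggt
IFIT3, chr10:89327865-89327894, plus strand: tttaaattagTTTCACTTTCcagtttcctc
Counted from the gene start, the windows begin at -119 in IFIT1, -120 in ISG15, -166 in IFIH1 and -132 in IFIT3. In ISG15 and IFIH1 the 2 matches overlap, and in IFIT1 they stand apart. The 4 genes with the motif included the higher ISG15 and IFIT1 and the scarcely expressed IFIT3 and IFIH1.

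IFIT1 encodes a protein that binds viral RNA without the host cap and blocks its translation. Its level was 2.32 RPKM with GFP (237 reads), 2.13 with WT (249), 2.27 with T275M (201), 2.18 with G302V (177), 2.41 with control siRNA (303) and 1.35 with DDX3X siRNA (453). The DDX3X siRNA library stood below the other 5, which lay between 2.13 and 2.41 RPKM. It was at 0.558 times its control (0.482 to 0.648), or -0.54 on the log2(RPKM + 1) scale (-0.67 to -0.41), the largest difference of any of the 6 members that entered that comparison. Of 12694 genes, 163 were as low or lower. In all 3 construct libraries the interval of the ratio to GFP held 1.

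ISG15, a ubiquitin-like protein that is attached to other proteins after interferon, was the steadiest of the interferon-induced members. It was at 2.90 RPKM with GFP (106 reads), 2.51 with WT (105), 2.75 with T275M (87), 2.92 with G302V (85), 2.91 with control siRNA (131) and 2.45 with DDX3X siRNA (295). The DDX3X siRNA and WT libraries were lowest, but the intervals of all its ratios to GFP and to control siRNA held 1. For DDX3X siRNA the ratio was 0.841 (0.682 to 1.04).

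IFIT3, which binds IFIT1 and steadies it, was at 0.172 RPKM with GFP (24 reads), 0.201 with WT (32), 0.132 with T275M (16), 0.171 with G302V (19), 0.221 with control siRNA (38) and 0.172 with DDX3X siRNA (79). Its ratio for DDX3X siRNA was 0.776 (0.521 to 1.18), and no difference was detectable at this depth. IFIT2, the relative linked to cell death after interferon, had 17 reads with GFP, 24 with WT, 12 with T275M, 7 with G302V, 13 with control siRNA and 19 with DDX3X siRNA. The lowest IFIT2 level was that with DDX3X siRNA (0.0301 RPKM) and the highest that with WT (0.110 RPKM), a 3.64-fold range on few reads. The ratio to the control was 0.546 for DDX3X siRNA (0.256 to 1.20) and 0.517 for G302V (0.181 to 1.31), so a 2-fold fall and no difference both lay inside each interval. G302V over WT gave 0.419 for IFIT2 (0.152 to 1.001), the lowest ratio of a member besides IFIH1. OAS1, which makes the 2-5A that activates RNase L, had 0 reads in its 3 rows in all 6 libraries. A count of 0 allows up to 3 reads, or 0.0439 RPKM in the shallowest library and 0.0106 RPKM in the deepest, and no fold is given.

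Counted over the 10 genes, none changed 2-fold on the log2(RPKM + 1) scale in any of the 7 comparisons. In each of them 6 genes entered, with 1 RPKM and 10 reads in at least 1 library, and IFIH1, IFIT2, IFIT3 and OAS1 did not. Among all genes that entered, 0.11% were past 2-fold for DDX3X siRNA over control siRNA, 0.248% for WT over GFP, 0.372% for T275M over GFP and 0.305% for G302V over GFP. The shares were 0.0771% for T275M over WT, 0.185% for G302V over WT and 0.503% for GFP over control siRNA. With shares this low, 0 of 6 genes is near the background and no result about these genes. With read rates in place of RPKM + 1, 9 of the 10 genes had 10 reads in a library of the siRNA comparison, and IFIH1 was the 1 called. For T275M over GFP, scaling the libraries by their median gene instead of their total lowered the log2 ratios by 0.116, and ratios near 1 in that library, such as that of MAVS, change sign with it.

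**Figure D2:**
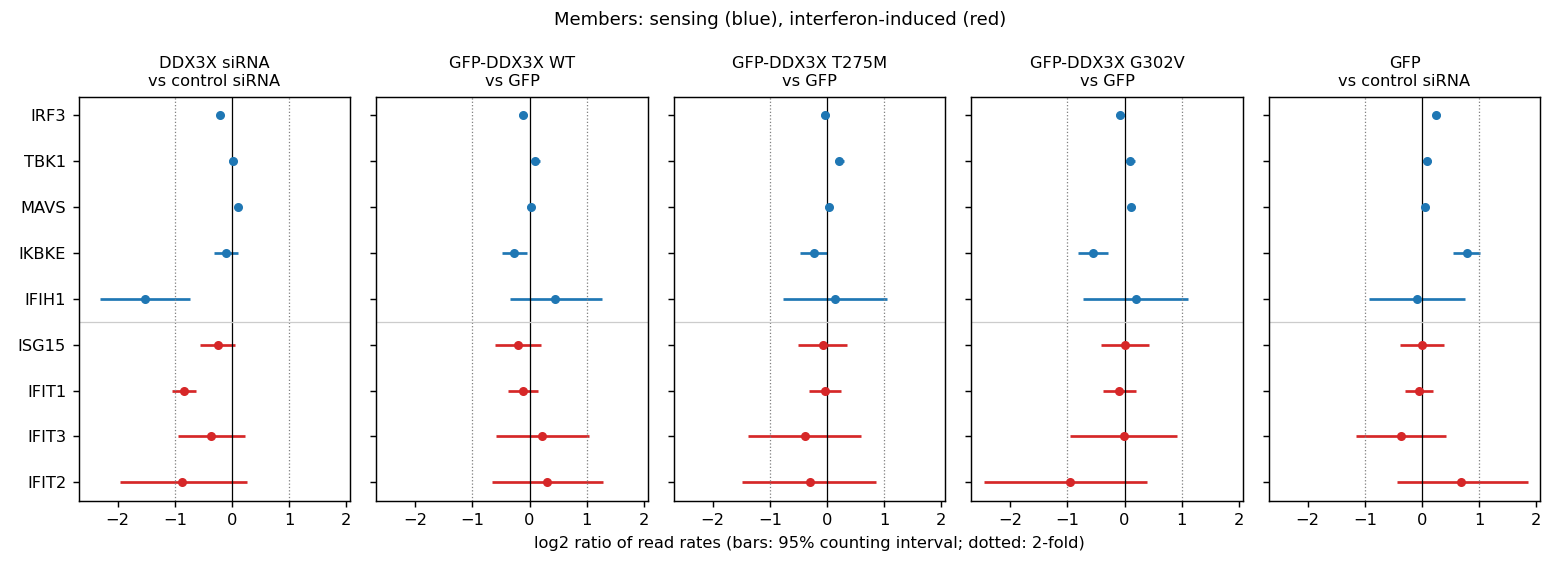
Log2 ratio of read rates of 9 of the 10 genes (OAS1 had no read) in 5 comparisons, with 95% counting intervals, sensing genes in blue and interferon-induced genes in red; dotted lines mark 2-fold. In the first panel all 4 interferon-induced genes lie left of 0. Of the sensing genes there, IFIH1, IRF3 and IKBKE lie left of 0, and MAVS and TBK1 lie at or right of it. In the 3 construct panels the points scatter on both sides.

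With DDX3X siRNA, the sensing genes MAVS, TBK1 and IKBKE had read-rate ratios of 1.08, 1.01 and 0.929, IRF3 had 0.868 and IFIH1, the lowest of all members, had 0.348. The 4 detected interferon-induced members had ratios of 0.558, 0.546, 0.776 and 0.841, all below 1, and of these the interval of IFIT1 alone left out 1. The ratios of the 2 sides overlapped, and the difference between the sides was not tested. In the construct comparisons the same 4 genes had no interval that left out 1 against GFP.

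A longer list of 60 interferon-induced genes, which holds the 5 members and IFIH1, was read in the same way. All 60 were in the tables, 27 of them at 1 RPKM or more on average and 33 below, and 6 (OAS1, OAS2, IFI44, RSAD2, XAF1 and RTP4) had fewer than 3 reads in every library. None of them was past 2-fold on the log2(RPKM + 1) scale in any of the 7 comparisons, of 26 to 28 that entered. Their median difference was -0.20 for DDX3X siRNA over control siRNA, where the median of all genes was -0.02. With WT over GFP it was 0.18 (all genes 0.05), with T275M 0.08 (0.07) and with G302V 0.06 (0.03).

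By read rates, which do not damp genes of low expression, 8 of 46 interferon-induced genes were at least 2-fold lower with DDX3X siRNA and none was higher. Of these, 6 were among the 19 genes under 1 RPKM (background 7.39%) and 2 among the 27 genes from 1 RPKM (background 0.496%). The 2 at the higher level were HERC6, a relative of the ligase that attaches ISG15, and UBE2L6, the enzyme that carries ISG15 to its targets. HERC6 fell from 2.71 RPKM (691 reads) to 1.29 RPKM (880 reads), a ratio of 0.475 (0.430 to 0.526). UBE2L6 fell from 1.01 RPKM (86 reads) to 0.50 RPKM (114 reads), a ratio of 0.495 (0.371 to 0.663).

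The 6 at the lower level were EPSTI1, IFI44L, IFIH1, OAS3, OASL and SAMD9, with ratios of 0.170 (OASL, 5 reads against 11) to 0.485 (SAMD9, 100 against 77). OASL reached 10 reads with control siRNA and not with DDX3X siRNA, so it could be counted only as lower. The median log2 ratio of the list was -0.82 under 1 RPKM, where all genes had -0.16, and -0.29 from 1 RPKM, where all genes had -0.03. Of the 19 genes at the lower level 17 had ratios below 1, where 60.8% of all genes did. Of the 27 at the higher level 19 did, where 54.6% of all genes did. HLA-B, which presents peptides and is one of the most abundant interferon-induced genes, was at 52.7 RPKM with control siRNA and 35.8 with DDX3X siRNA, a ratio of 0.680 (0.658 to 0.703). HLA-B shares sequence with other HLA genes, and how reads were divided among them is uncertain. ADAR, an RNA editor with an interferon-induced form, was at 51.9 and 53.0 RPKM (ratio 1.02, 1.01 to 1.04) and PNPT1, an exonuclease of mitochondria, at 30.5 and 31.9 RPKM (1.04, 1.02 to 1.07), so these abundant genes of the list differed in direction.

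**Figure D3:**
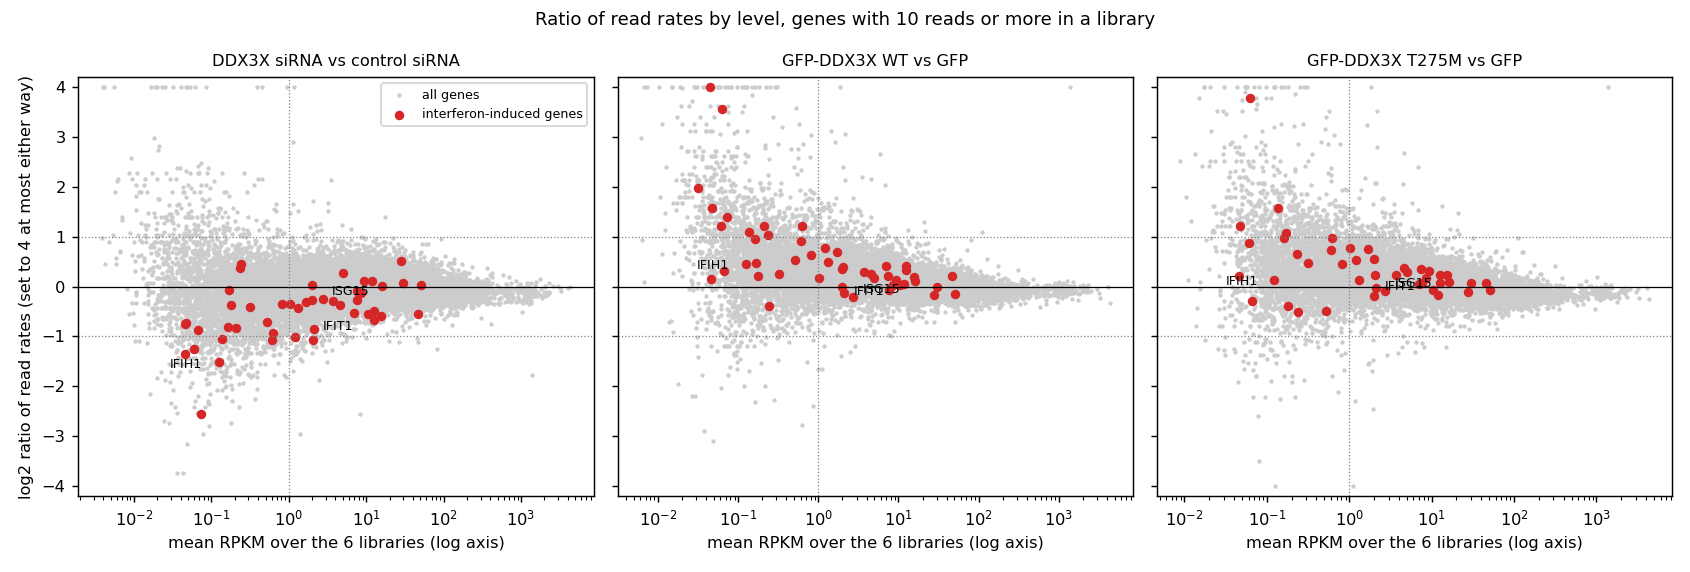
Log2 ratio of read rates against mean RPKM over the 6 libraries (log axis) in 3 comparisons, for all genes (grey) and the interferon-induced list (red), with 10 reads or more in a library; ratios beyond 4 are drawn at 4. With DDX3X siRNA most red points lie below 0 on both sides of 1 RPKM, whereas with WT the red points above the 2-fold line all lie left of 1 RPKM, where many grey points lie as well.

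With GFP-DDX3X WT, 9 interferon-induced genes were counted as higher, all of them expressed at low levels. Of 48 interferon-induced genes 9 were at least 2-fold higher than with GFP, all among the 21 under 1 RPKM, where the background was 14.6%, and 0 of 27 from 1 RPKM, where it was 0.725%. They were BST2, CXCL10, GBP1, MX1, OAS3, PARP10, PSMB9, SAMD9 and TRIM22. BST2, CXCL10, GBP1, MX1 and TRIM22 reached 10 reads in the WT library and not in the GFP library, so these 5 could be counted only as higher. The count and the median of the low genes are therefore a description and give no support for a rise of the list. TRIM22, an antiviral ubiquitin ligase, had 2 reads with GFP, 27 with WT, 24 with T275M, 5 with G302V and 3 in each siRNA library. Its ratio to GFP was 11.8 for WT (2.97 to 102) and 13.8 for T275M (3.44 to 121), and the G302V interval held 1. CXCL10, a chemokine that attracts T cells, had 11 reads with WT, 7 with T275M, 1 with DDX3X siRNA and 0 in the other 3 libraries. Against a floor of 3 reads in GFP, WT was at least 3.21-fold higher, and the exact 95% counting interval of the ratio, which allows for error in the 11 reads too, begins at 2.19.

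The other 7 had ratios of WT to GFP between 2.04 (PARP10) and 3.93 (GBP1). The median log2 ratio of the list was 0.96 under 1 RPKM (all genes 0.39), also with CXCL10 set to its bound, and 0.17 from 1 RPKM (all genes 0.06). UBE2L6 and HERC6, which were lower with DDX3X siRNA, were at 1.70 times (1.27 to 2.29) and 1.30 times (1.14 to 1.49) GFP with WT. On the log2(RPKM + 1) scale, 561 and 1910 of 12915 genes were as high or higher. Between the 2 controls, GFP over control siRNA was 0.670 for HERC6 (0.589 to 0.761) and 1.045 for UBE2L6 (0.754 to 1.44). Genes outside the list moved as well, and SNAP25, a synaptic gene of the neuronal marker list, went from 13 reads with GFP to 178 with WT, 119 with T275M and 26 with G302V. SNAP25 was chosen after its values were seen, and its part in the result was not tested.

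With the mutants, fewer genes of the list were counted than with WT, but their libraries were shallower. T275M had 47550000 reads and G302V 43720000, against 62740000 with WT. In the comparisons with GFP, 44 list genes had 10 reads in a library for T275M and 43 for G302V, against 48 for WT. Whether the counts differ beyond the effect of depth was not tested. With T275M, DHX58, SAMD9 and TRIM22 were at least 2-fold above GFP, 3 of the 17 genes under 1 RPKM (background 13.9%) and 0 of 27 from 1 RPKM (background 0.844%). With G302V it was OAS3 alone, 1 of 16 (background 6.51%) and 0 of 27 (background 0.324%). Set against WT directly, GBP1 and ISG20 were lower with T275M, 2 of 21 genes under 1 RPKM (background 2.51%). CXCL10, GBP1 and TRIM22 were lower with G302V, 3 of 21 (background 9.15%). Of these 5 calls, ISG20 alone had 10 reads in the mutant library. GBP1, a GTPase that attacks intracellular pathogens, had 18 reads with WT, 4 with T275M, 1 with G302V and 4 with GFP. Between the 2 controls, CCL5 was higher with GFP (background 3%) and EPSTI1, OAS3, PSMB9 and SAMD9 were lower, 4 of 17 genes under 1 RPKM (background 4.24%) and 0 of 27 from 1 RPKM (background 0.268%). SAMD9, with 29 reads in GFP and 77 in control siRNA, thus differed between the controls by as much as between DDX3X siRNA and its control.

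**Figure D4:**
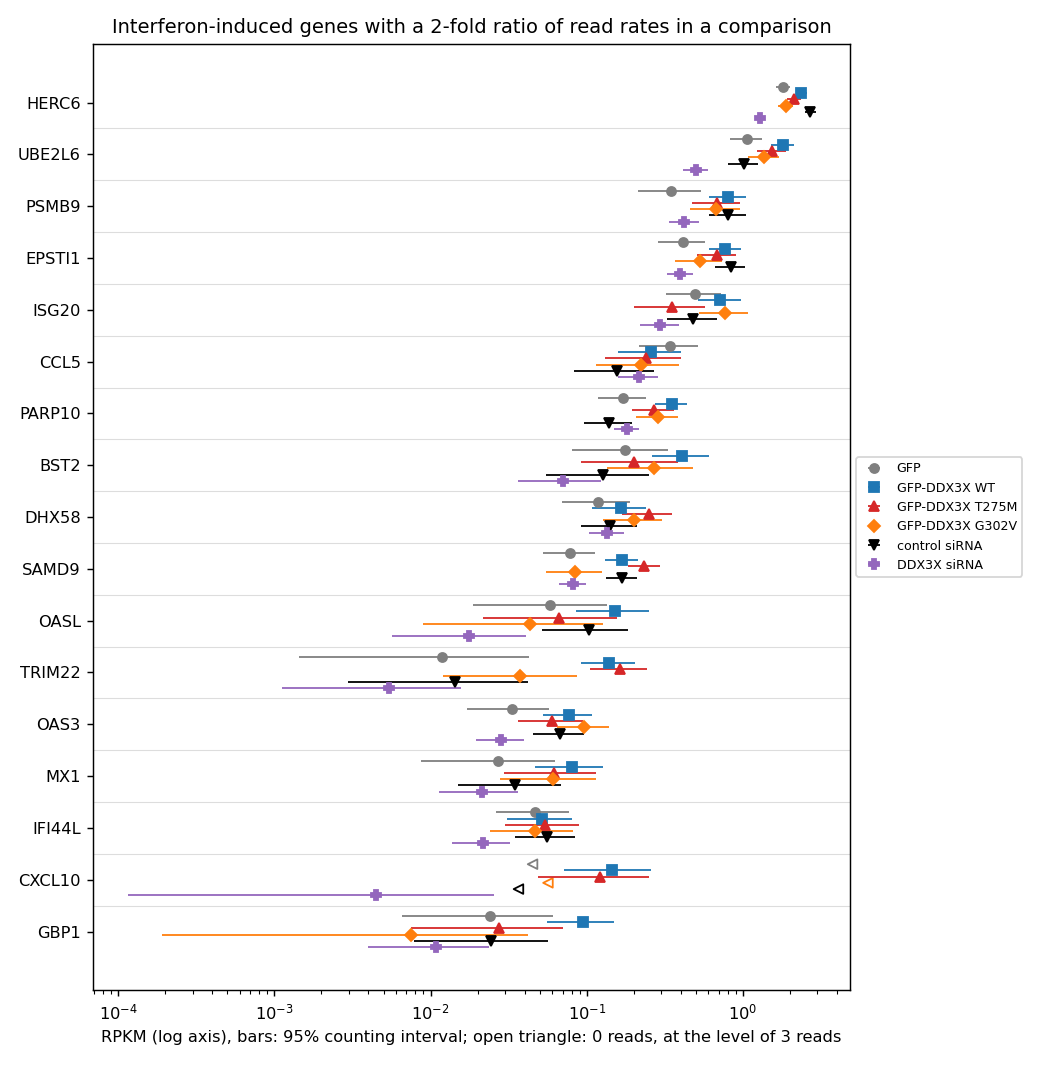
RPKM (log axis) of the interferon-induced genes with a 2-fold ratio of read rates in at least 1 comparison, in the 6 libraries with 95% counting intervals; open triangles mark 0 reads at the level of 3 reads. HERC6 and UBE2L6 are lowest with DDX3X siRNA, and TRIM22 and CXCL10 are highest with WT and T275M.

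The interferon genes themselves were not detected. IFNB1, IFNA1, IFNA2 and IL29 (now IFNL1) had fewer than 3 reads in every library, and the changes in interferon-induced genes were measured in libraries without detectable mRNA of these 4. Of 12 interferon and receptor symbols 10 matched the tables. IFNGR1, a receptor for interferon gamma, was the most abundant, at 23.3 RPKM with GFP, 26.6 with WT, 27.9 with T275M, 23.4 with G302V and 31.5 in both siRNA libraries. None of the 6 receptor genes that entered was past 2-fold in any comparison.

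Upstream of interferon, no gene of the remaining lists changed 2-fold on the log2(RPKM + 1) scale either. Only 1 or 2 of 12 RNA sensors and 3 or 4 of 8 DNA sensing genes entered there. By read rates, 2 of 6 RNA sensors under 1 RPKM were called lower with DDX3X siRNA (background 7.39%). Against GFP, 2 of 6 were higher with WT (14.6%), 1 of 5 with T275M (13.9%) and 1 of 5 with G302V (6.51%). Against WT, 1 of 6 was lower with T275M (2.51%) and 1 of 6 with G302V (9.15%). For GFP over control siRNA 1 of 5 was lower (4.24%). Of 2 low DNA sensing genes 1 was called lower for G302V over WT. In the list of 12 RNA sensors, TLR7, TLR8, ZBP1, OAS1 and OAS2 had fewer than 3 reads everywhere, and EIF2AK2 (PKR), which halts translation on double-stranded RNA, was the highest. EIF2AK2 was at 7.64 RPKM with GFP, 8.32 with WT, 9.55 with T275M, 10.9 with G302V, 9.59 with control siRNA and 10.3 with DDX3X siRNA. Relative to GFP, WT had 1.09 times the read rate (1.02 to 1.17), T275M 1.25 times (1.17 to 1.34) and G302V 1.42 times (1.33 to 1.53). Both mutants were above WT, T275M at 1.15 times (1.07 to 1.23) and G302V at 1.31 times (1.23 to 1.40). Of the 3 constructs, T275M had the highest DDX3X level and G302V the lowest, and a relation of EIF2AK2 to that level was not tested. Between the 2 controls, GFP was at 0.797 times control siRNA (0.747 to 0.850).

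DDX58 (RIG-I), the sensor of 5′ triphosphate RNA, was at 0.698 RPKM with GFP (182 reads), 1.08 with WT (322), 0.960 with T275M (217), 0.765 with G302V (159), 0.797 with control siRNA (256) and 0.622 with DDX3X siRNA (535). It was highest with WT, at 1.55 times GFP (1.29 to 1.86), and lowest with DDX3X siRNA, at 0.780 times its control (0.671 to 0.909). Of the RNA sensors under 1 RPKM with enough reads, all 6 were above GFP with WT and all 6 were below control siRNA with DDX3X siRNA. Most genes at this level leaned the same way, with 78.6% of all genes under 1 RPKM above GFP with WT and 60.8% below control siRNA with DDX3X siRNA. DDX58, IFIH1, DHX58 and OAS3, which are among these 6 sensors, also belong to the longer interferon-induced list. The 2 lists are therefore not independent.

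Among 8 DNA sensing genes, 3 (DDX41, PRKDC and MRE11A) averaged 1 RPKM or more. The other 5, cGAS and STING among them, averaged less, and AIM2 and ZBP1 had fewer than 3 reads everywhere. PRKDC, the catalytic subunit of DNA-PK, was at 33.4 RPKM with GFP, 30.6 with WT, 32.8 with T275M, 43.3 with G302V, 52.3 with control siRNA and 66.1 with DDX3X siRNA. It was higher in both siRNA libraries than in the plasmid libraries, and its ratio was 1.26 for DDX3X siRNA (1.25 to 1.28) and 1.29 for G302V over GFP (1.27 to 1.32). DDX41 lay between 53.8 and 64.4 RPKM.

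The 16 adaptors and their ubiquitin ligases all entered, with median differences between -0.03 and 0.10 on the log2(RPKM + 1) scale. The 7 signalling kinases had medians between -0.07 and 0.18, the last for the 2 controls. CHUK (IKK alpha), at 26.4 RPKM with control siRNA and 32.9 with DDX3X siRNA, had a ratio of 1.24 (1.21 to 1.28). Of the 10 transcription factors 9 entered, and RELA, a subunit of NF-kB, lay between 33.5 and 39.8 RPKM in all 6 libraries. Its ratio for DDX3X siRNA was 0.976 (0.945 to 1.01).

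In the NF-kB branch, which the same sensors activate, genes differed from one another, and some differed in level between the constructs. TNF, chosen after its values were seen, had 2 reads with GFP, 43 with WT, 31 with T275M, 3 with G302V, 1 with control siRNA and 6 with DDX3X siRNA. WT and T275M were thus at 0.411 and 0.391 RPKM and the other 4 libraries under 0.05 RPKM. The ratio to GFP was 18.8 for WT (4.90 to 160) and 17.9 for T275M (4.55 to 154), and G302V over WT was 0.10 (0.0199 to 0.313). TNF reached 10 reads with WT and T275M and not with GFP or G302V. Against GFP it could be counted only as higher, and for G302V over WT only as lower. The TNF ratios and their intervals are therefore a description only. TNF lies under 1 RPKM, where 14.6% of all genes were called higher with WT and 13.9% with T275M. TNFAIP3 (A20), an inhibitor that NF-kB induces, was at 1.45 RPKM with GFP, 2.34 with WT, 2.42 with T275M and 1.57 with G302V. Relative to GFP, the read rate with WT was 1.61 times as high (1.41 to 1.84), with T275M 1.66 times (1.45 to 1.91) and with G302V 1.08 times (0.924 to 1.26). G302V over WT was 0.671 (0.584 to 0.770), with over 300 reads in each library. On the log2(RPKM + 1) scale, 617 of 12967 genes were as low or lower in that comparison. Relative to GFP, 557 of 12915 genes with WT and 551 of 12912 with T275M were as high or higher than TNFAIP3. NFKBIA, another inhibitor of this kind, lay between 12.1 and 13.6 RPKM in the 4 plasmid libraries. CXCL2, a chemokine that draws neutrophils, had 33 reads with GFP, 24 with WT, 26 with T275M and 23 with G302V, ratios to GFP of 0.636 (0.360 to 1.11), 0.909 (0.522 to 1.57) and 0.875 (0.490 to 1.54). CCL5, a chemokine counted among the interferon-induced genes, had 23, 20, 14 and 12 reads in the same order, and its intervals held 1 too. CXCL2 had 32 reads with DDX3X siRNA and 24 with control siRNA, a ratio of 0.498 (0.284 to 0.883). It was thus called lower in that comparison, where 7.39% of all genes under 1 RPKM were.

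On GRCh37, the build of the deposited tables, GENCODE version 44 places IFIT2 (chr10:91043451-91069028), IFIT3 (chr10:91087064-91137230) and IFIT1 (chr10:91152303-91166244) in this order on the plus strand, with IFIT1B between the last pair. The 3 genes had different levels, with the lowest level of IFIT1 (1.35 RPKM) above the highest of IFIT3 (0.221 RPKM). IFIH1 lies on the minus strand at chr2:163123584-163175194, ISG15 on the plus strand at chr1:936518-949920 and IKBKE on the same chromosome at chr1:206643819-206670222. MAVS lies at chr20:3827446-3856770, TBK1 at chr12:64845870-64895894 and OAS1 at chr12:113343661-113371024, all on the plus strand, and IRF3 at chr19:50162826-50169132 on the minus strand. The values of each gene are sums over the exons of 1 transcript, and kits that do not mark strand cannot tell reads of overlapping genes apart.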

How the data were processed

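Total RNA of HEK293T cells was made into 6 libraries with TruSeq RNA kits, 1 per group, and groups were taken from the sample labels. Per the file headers, the authors deposited RPKM, which the study's methods call FPKM. Per the methods and the submitters' processing notes, the authors trimmed adapters with cutadapt, aligned reads with BWA 0.5.5 to hg19 (GRCh37) and to transcript sequences, removed duplicates, counted reads per gene and divided by length and total reads. Each table has 39618 rows under 23204 symbols.

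Reads were recovered from RPKM, row length and the step of the low values, where 100% of the low rows checked lay within 0.1 of a whole read. Depths are known only from this step. Differences of log2(RPKM + 1) were computed for genes with 1 RPKM and 10 reads in at least 1 of the 2 libraries, with a threshold of 2-fold. On this scale the change of low genes is understated, so ratios of read rates were computed too, called at 2-fold with an exact (Clopper-Pearson) 95% interval that leaves out 1 and 10 reads. The split of that count at 1 RPKM was added after seeing the data. Poisson intervals were used for levels. No test was run, since each group has 1 library. GFP is shared by 4 comparisons, WT by 3 and control siRNA by 2. The members and lists were chosen with earlier results of these data known. Genes named are the members, DDX3X, the 3 most abundant of each list, list genes past 2-fold and interferon genes called by read rates, except where stated and except for 1 item that is not reported here. The scripts (Python 3.11.15, pandas 2.3.3, scipy 1.17.1) were tested on simulated data.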

Additional observations from a re-analysis of the deposited data

How the results depend on the processing

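No replicate could be left out, as each group has 1 library. No paired analysis was possible because each group has 1 library. The count of members past 2-fold stayed at 0 in all comparisons under pseudocounts of 0.1 and 10, no filter on low values, a minimum of 10 RPKM, median-ratio scaling, CPM, summed rows and a 1.5-fold threshold, and read rates gave 1 (IFIH1) for DDX3X siRNA. The count of interferon-induced genes past 2-fold, 0 as reported, became 1 for DDX3X siRNA with a pseudocount of 0.1, 2 with a 1.5-fold threshold and 8 with read rates. Read rates gave 9 for WT over GFP, 3 for T275M over GFP, 1 for G302V over GFP, 2 for T275M over WT, 3 for G302V over WT and 5 for GFP over control siRNA, where a 1.5-fold threshold gave 1. The log2(RPKM + 1) scale by its construction holds low genes near 0. Median-ratio scaling turned the direction of 4 of 42 member ratios, all near 1 (MAVS for WT and T275M over GFP, ISG15 for G302V over GFP, TBK1 for G302V over WT), and moved the counting interval onto or off 1 for 11 of 63 ratios of read rates, of MAVS, TBK1, IKBKE or IRF3. A minimum of 10 RPKM left 14 of the 42, none of an interferon-induced member. IFIH1, IFIT2 and IFIT3 rest on 7 to 79 reads, and smaller changes than their intervals are not detectable.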
